A study of Homo sapiens with 9 samples.

Results

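Cells that had already been exposed to NRG1 for 12 h were compared with cells exposed for 24 h, so the comparison asked what the second 12 h added to, kept of or took from the response. LNCaP cells, an androgen-responsive line from a human metastatic prostate carcinoma, were plated in wells in triplicate, starved in serum-free and calcium-free medium for 6 to 12 h, and treated with 15 ng/mL of recombinant NRG1. RNA was sequenced from 3 libraries at 12 h and 3 at 24 h, which are 6 of the 9 libraries of the series. The other 3, collected at 0 h after the same starvation, served as the starting level. Genes with at least 10 counts in 3 or more of the 6 libraries were tested, which were 18484 of 37351. No library without NRG1 at 12 or 24 h was analysed here, so the time in serum-free medium and the time with the ligand cannot be told apart. The line is a single cell line in culture, and p-values measured the spread between wells.

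NRG1 is a secreted growth factor that binds HER3 (ERBB3). HER3 has little kinase activity of its own and signals as a pair with HER2 (ERBB2), through PI3K and AKT and through the RAS, MEK and ERK cascade. ERK output includes transcription factors of the ETS and AP-1 families and phosphatases and Sprouty-family proteins that damp the cascade again, while AKT and mTORC1 favor lipid synthesis, amino acid uptake and protein synthesis. In prostate luminal cells, growth factor signaling and the androgen program are known to influence each other.

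The 6 libraries held 47016302 to 54605125 counts and the 0 h libraries 58267359 to 60985825, and mitochondrially encoded genes took 5.02% to 6.09% of the counts of a library. No replicate pair was alike enough to be 1 library deposited again, with a chi-square per degree of freedom of 3.15 to 9.11. The 11 luminal prostate markers checked, among them KRT8, KRT18, EPCAM, CDH1 and KLK3, all passed the filter, and their summed level was 5421 to 5453 CPM (read counts scaled for library size) at 12 h and 5107 to 5250 at 24 h. None of 5 basal and none of 6 leukocyte markers passed, with summed levels of at most 0.330 and 0.488 CPM and KRT5 at 0 in the 6 libraries. Of 9 fibroblast markers 4 passed, with a sum of 24.6 to 26.5 CPM at 12 h and 26.4 to 27.3 at 24 h, and 1 of 5 endothelial markers passed, with a sum of 8.45 to 9.39 and 6.89 to 8.10 CPM. None of the fibroblast and endothelial markers that passed the filter differed between 12 and 24 h at an adjusted p of at most 0.05. The 4 fibroblast ones were all higher at 24 h (median log2 fold change 0.12), and the endothelial one was lower (-0.25). Of the 11 luminal ones 5 fell, among them KLK3, KLK2, TMPRSS2 and HOXB13.

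The second 12 h moved many genes by small amounts. With an adjusted p of at most 0.05 (edgeR's quasi-likelihood test, Benjamini-Hochberg), 593 genes were higher at 24 h, 3.21% of those tested, and 597 were lower, 3.23%. Their median absolute log2 fold change was 0.20, and the median over all tested genes was 0.00 in signed value. A fold of at least 1.5 as well was reached by 50 genes that were higher, 0.271% of those tested, and 40 that were lower, 0.216%. Without 12 h replicate 2 the 90 became 55, and the 1190 called by adjusted p became 707, against 791 without 12 h replicate 1 and 784 without 24 h replicate 3. In bulk RNA of this kind, fewer cells of a type and less RNA per cell cannot be told apart.

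Each called gene was then set beside its difference between 0 and 12 h, which shares the 12 h libraries with the comparison, so that these counts are descriptions. Against 0 h, 10.7% of tested genes were higher and 8.74% lower at 12 h, and 11.8% were higher and 10.2% lower at 24 h. Among genes that rose in the second 12 h, 123 had risen by 12 h and kept rising (0.665% of tested genes), and 302 had not passed at 12 h and rose late (1.63%). Another 86 had fallen by 12 h and partly recovered (0.465%), and 82 had fallen by 12 h and ended above their mean at 0 h (0.444%). Among those that fell, 107 had fallen and kept falling (0.579%), and 324 fell late (1.75%). The rise of 94 genes partly faded (0.509%), and 72 that had risen by 12 h ended with an estimate below 0 h (0.39%). For genes that turned back, the side of 0 h at 24 h was set by the sign of the estimate, without a test. A full return to the 0 h level was therefore not told apart from a partial one or a crossing. At 24 h the difference from 0 h passed its own test on the new side in 9 of the 72 and 11 of the 82. The counts moved most for genes that turned back. The 86 genes that recovered became 46 and 39 without 12 h replicates 1 and 2 and 50, 47 and 35 without 24 h replicates 1, 2 and 3. The 94 became 42 without 12 h replicate 2 and 50 without 24 h replicate 3. The 72 became 45 without 0 h replicate 1 and 40, 34 and 42 without each of the 12 h replicates 1, 2 and 3. The 82 became 48 without 0 h replicate 3, 48 and 39 without 12 h replicates 1 and 2, and 54 without 24 h replicate 3. Late rises became 201 without 12 h replicate 2, late falls 192 without 12 h replicate 2 or 24 h replicate 3, and genes that kept falling 67 without 12 h replicate 3.

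The members of 39 lists of genes by function were counted against these backgrounds. The lists held 935 tested genes, and in 7 lists no member was called. A list with 1 or 2 calls can lie near or below the shares of all tested genes, as for DNA replication and for ribosome biogenesis with 1 call of 40 each, and such counts say nothing particular about a list.

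**Figure D1:**
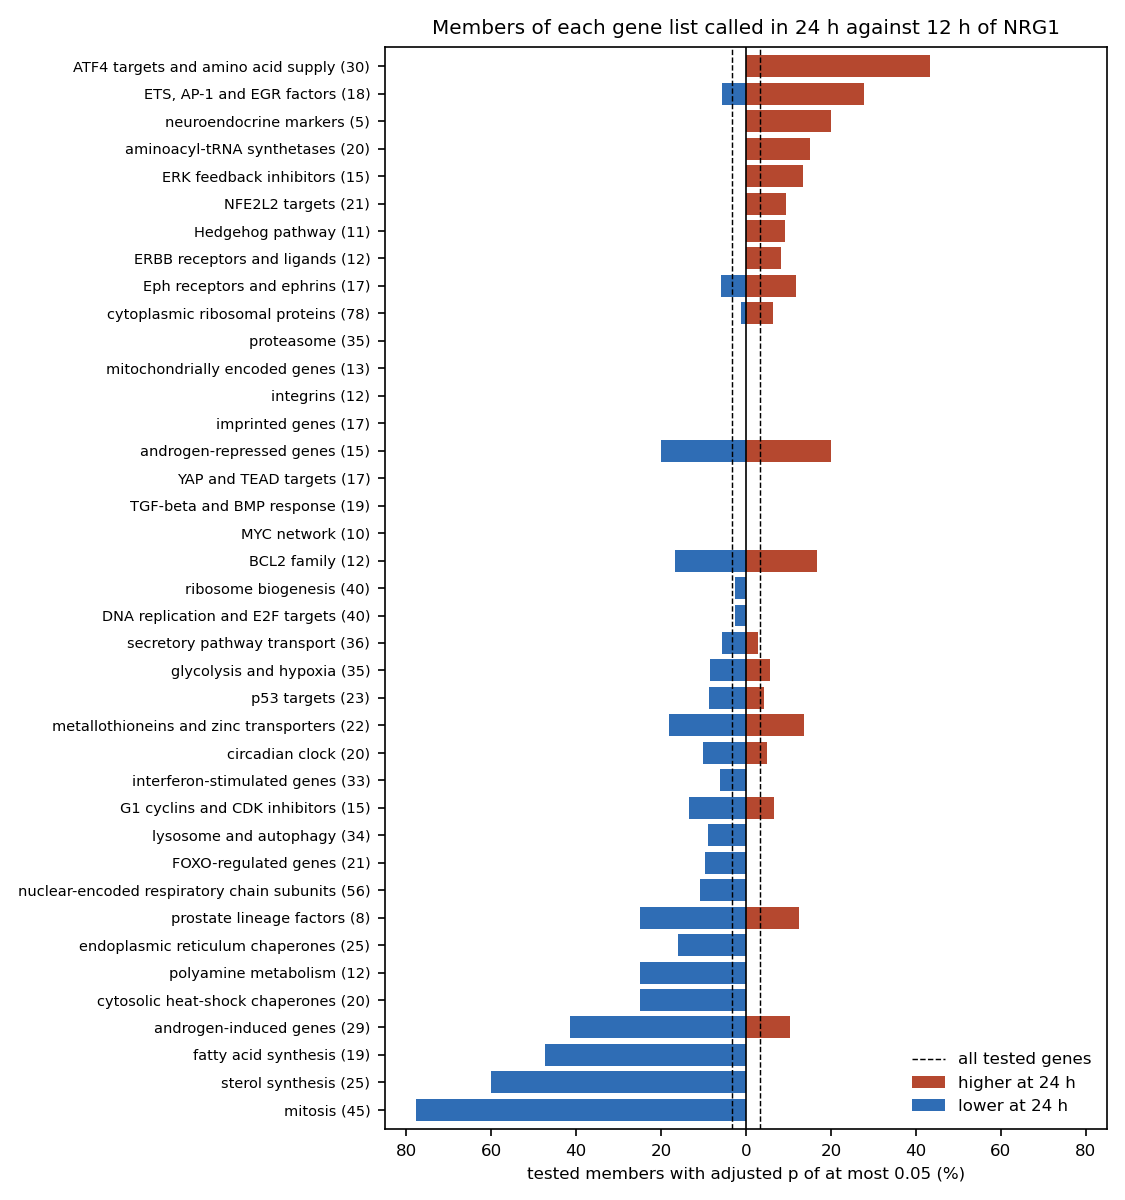
Share of the tested members of each gene list with an adjusted p of at most 0.05, in percent, for genes higher at 24 h (right, red) and lower at 24 h (left, blue); the number tested is in parentheses and the dashed lines mark the shares of all tested genes, 3.21% and 3.23%. Mitosis, sterol synthesis, fatty acid synthesis and androgen-induced genes reach farthest to the left, and ATF4 targets with amino acid supply farthest to the right.

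The clearest drop was in the machinery of mitosis. Of 45 listed mitotic genes, all tested, 35 fell between 12 and 24 h and none rose, with a median log2 fold change of -0.25 against 0.00 over all tested genes. In 43 of the 45, all 3 libraries at 24 h lay below all 3 at 12 h. Over all 18484 tested genes, 2334 lay below in this way and 2278 lay above. By 12 h, 9 of the 45 mitotic genes had risen and none had fallen, with a median of 0.09. At 24 h 29 were below 0 h and none above. Of the 35 that fell, 8 had risen and then had an estimate below 0 h at 24 h, and 27 fell late. The number called lower was 26 to 37 with each library left out.

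PTTG1 encodes securin, which holds back separase until chromosomes part. It measured 49.8, 52.1 and 53.1 CPM at 12 h and 35.5, 35.1 and 36.7 CPM at 24 h. All 3 libraries at 24 h were lower, by -0.53 ± 0.044 (log2 fold change ± SE, adjusted p = 1e-10). HMMR, a spindle protein that also binds hyaluronan, measured 70.6, 69.2 and 69.6 CPM at 12 h and 49.5, 51.7 and 53.6 CPM at 24 h, a change of -0.44 ± 0.04 with an adjusted p of 1.1e-09. Cyclin B1, the CDK1 partner that drives entry into mitosis (CCNB1), measured 101, 111 and 117 CPM at 0 h, 119, 121 and 119 CPM at 12 h and 95.0, 91.8 and 92.4 CPM at 24 h. The 12 h libraries were the highest of the 9 and the 24 h libraries the lowest, and the change from 12 to 24 h was -0.36 ± 0.039 (adjusted p = 5.9e-08). DLGAP5, which bundles spindle microtubules, was steady at 45.3 to 45.4 CPM at 0 h and went from 46.0, 49.7 and 48.0 CPM at 12 h to 37.6, 35.4 and 36.2 CPM at 24 h, by -0.40 ± 0.043 (adjusted p = 5e-08).

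Many of the listed mitotic genes hold, near their start, a short sequence that is known from cell cycle promoters. In windows of 250 bases before to 50 after the start of transcription (RefSeq, GRCh38.p14), the cell cycle homology region TTTGAA, read on both strands, was found in 26 of the 37 mitotic genes with a promoter in the reference table, 70.3%, against 9.6% of the 11723 promoters of tested genes. Of the 28 called genes with a promoter, 17 held it, a share no higher than over all 37. The promoters of PTTG1 and CCNB1 held no match. The promoters of HMMR (chr5:163460382-163460681, plus strand), DLGAP5 (chr14:55191536-55191835, minus strand) and CCNB2 (chr15:59104896-59105195, plus strand) are given because they had the smallest adjusted p among called members with a match. They read 5′ to 3′ along the gene, with matches in capitals, also where the match lies on the other strand (TTCAAA). A match is a description of the sequence, not evidence of binding.
HMMR: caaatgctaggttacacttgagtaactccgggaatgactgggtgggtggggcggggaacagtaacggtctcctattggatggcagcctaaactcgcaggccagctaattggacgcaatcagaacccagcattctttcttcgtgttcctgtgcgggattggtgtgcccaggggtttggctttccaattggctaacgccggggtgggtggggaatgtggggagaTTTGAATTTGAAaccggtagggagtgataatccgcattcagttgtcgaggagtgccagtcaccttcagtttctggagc
DLGAP5: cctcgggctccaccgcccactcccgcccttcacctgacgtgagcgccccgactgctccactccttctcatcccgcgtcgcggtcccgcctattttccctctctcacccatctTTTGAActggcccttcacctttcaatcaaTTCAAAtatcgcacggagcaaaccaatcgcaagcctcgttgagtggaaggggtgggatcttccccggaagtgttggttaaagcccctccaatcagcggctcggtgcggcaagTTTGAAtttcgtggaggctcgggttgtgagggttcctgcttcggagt
CCNB2: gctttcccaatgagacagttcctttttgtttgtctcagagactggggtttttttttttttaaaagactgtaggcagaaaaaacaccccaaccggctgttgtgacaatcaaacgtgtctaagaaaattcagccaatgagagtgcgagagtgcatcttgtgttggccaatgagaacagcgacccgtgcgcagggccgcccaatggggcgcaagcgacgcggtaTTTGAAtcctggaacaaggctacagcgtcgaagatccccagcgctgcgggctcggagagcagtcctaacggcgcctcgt

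Genes of the preceding S phase did not follow. Of 40 genes of DNA replication and E2F targets, 1 fell and none rose, with a median of -0.02 between 12 and 24 h. The 1 that fell was RRM1, the large subunit of ribonucleotide reductase, at 102, 101 and 105 CPM and then 93.4, 94.7 and 92.8 CPM (-0.13 ± 0.036, adjusted p = 0.018), and its call did not hold when 12 h replicate 3 or either of the 24 h replicates 1 and 3 was left out. By 12 h 16 of the 40 had risen and 1 had fallen, with a median of 0.15, and against 0 h at 24 h the counts were 17 and 1 with a median of 0.16. Ribosome biogenesis, 40 genes for making and processing ribosomal RNA, likewise kept its early rise: 28 were higher than 0 h at 12 h and 28 at 24 h, with medians of 0.19 and 0.18 and none lower. Between the times 1 of its genes fell, NPM1, which encodes the nucleolar protein nucleophosmin (-0.10 ± 0.03, adjusted p = 0.028), and that call was lost in 5 of the 6 fits that left out a 12 or 24 h library, all but that without 12 h replicate 3.

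**Figure D2:**
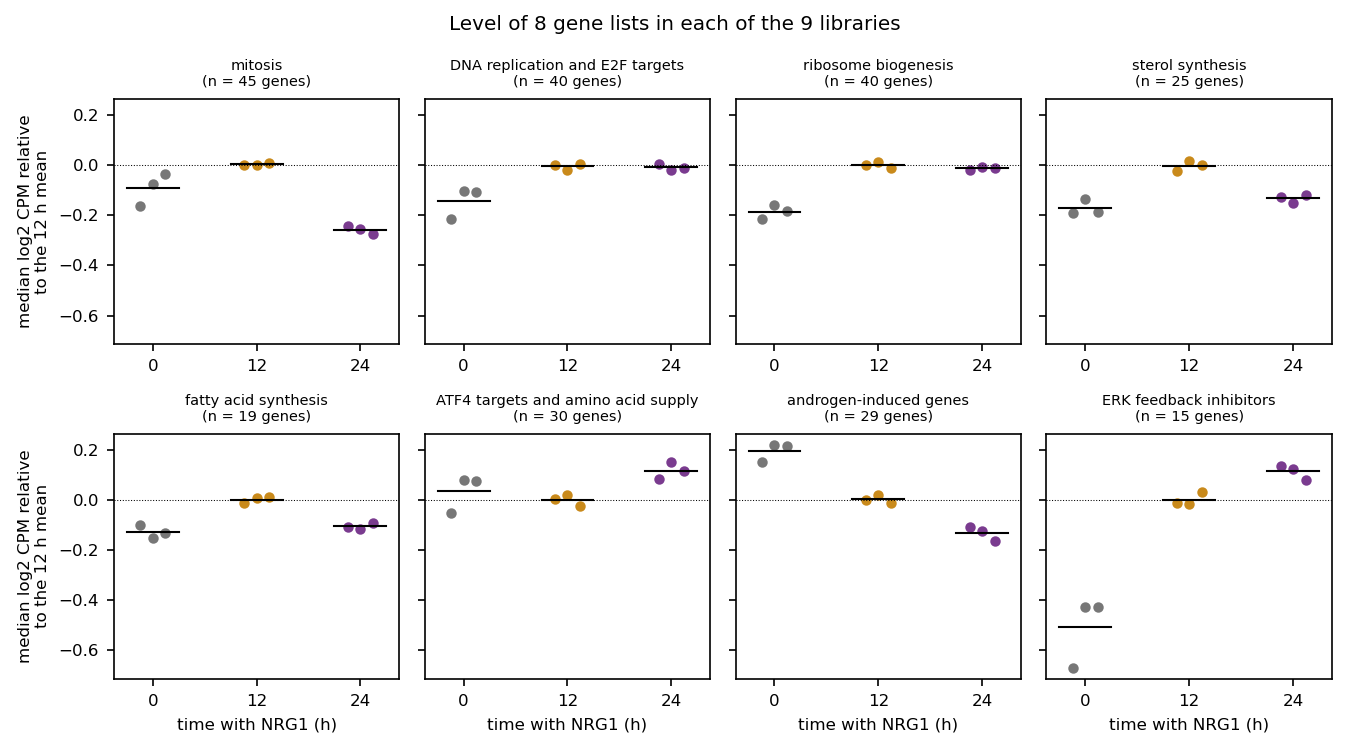
Median over the tested members of 8 gene lists of log2 CPM relative to the mean of the 12 h libraries, for each library at 0, 12 and 24 h of NRG1; points are libraries and lines the mean of 3. Mitosis, sterol synthesis, fatty acid synthesis and androgen-induced genes are lower in all 3 libraries at 24 h than at 12 h, ATF4 targets and ERK feedback inhibitors are higher, and replication and ribosome biogenesis lie near their 12 h level.

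Much of sterol synthesis rose early and then fell back, and fatty acid synthesis was mixed at 12 h before part of it fell. Of 25 genes of the cholesterol pathway, 15 had risen and 1 had fallen by 12 h, and 15 fell and none rose between 12 and 24 h, with medians of 0.18 and then -0.13. Among the 15 that fell, 9 had risen and kept an estimate above 0 h, 3 had risen and ended with one below 0 h, and 3 had not passed at 12 h. These sides of 0 h go by the sign alone, and FDFT1, among the 9, did not differ from 0 h by the test (0.03, adjusted p = 0.52). Against 0 h at 24 h, 8 were higher and 4 lower. The number that fell was 11 to 15 with each library left out. HMGCS1 makes HMG-CoA, an early intermediate of the pathway. It measured 605 to 608 CPM at 0 h, 855, 904 and 903 CPM at 12 h and 662, 652 and 713 CPM at 24 h. Its 24 h libraries lay between the other times, with changes of 0.55 to 12 h (adjusted p = 3.1e-15) and -0.39 ± 0.033 from 12 to 24 h (adjusted p = 1.4e-10). FDFT1, squalene synthase, which commits the pathway to sterols, returned from 1243 to 1279.7 CPM at 12 h to 1018 to 1056 CPM at 24 h, beside 984 to 1033 CPM at 0 h (-0.29 ± 0.03, adjusted p = 2.9e-08). FDPS, which makes farnesyl diphosphate, fell by 0.23 ± 0.033 on the log2 scale (adjusted p = 9.5e-06) and stayed 0.11 above 0 h.

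ACAT2, which joins acetyl-CoA units at the first step, went from 81.9, 88.1 and 88.5 CPM at 0 h to 97.8, 100 and 94.4 CPM and then to 77.9, 74.8 and 77.7 CPM. Its 24 h libraries were the lowest of the 9 (-0.34 ± 0.038 from 12 h, adjusted p = 5.7e-08). ACAT2 overlaps TCP1, which had over 5 times as many counts and a change of -0.25, and strand was not stated for the counting. Of 18 sterol genes with a promoter in the table, 1 held the sterol response element TCACNCCAC on either strand, 5.56% against 1.11% of promoters of tested genes, and it was not among the 10 called ones. Of 19 genes of fatty acid synthesis and desaturation, 9 fell and none rose, with a median of -0.11, after 10 had risen and 6 had fallen by 12 h (6 to 9 fell with each library left out). Among the 9, the rise of 6 faded, 1 ended with an estimate below 0 h and 2 kept falling. The 1 was ACLY, at -0.08 against 0 h, which did not pass. ACSS2, which activates acetate, measured 117 to 123 CPM at 0 h, 175, 182 and 178 CPM at 12 h and 139, 148 and 132 CPM at 24 h (-0.35 ± 0.036, adjusted p = 1.9e-08). ACLY, which makes cytosolic acetyl-CoA from citrate, fell by 0.21 ± 0.035 (adjusted p = 8.9e-05) and SCD, the desaturase that makes oleate, by 0.19 ± 0.033 (adjusted p = 0.00014), both on the log2 scale after a rise. ACSL1, which activates long-chain fatty acids, kept falling, from 663 to 684 CPM at 0 h to 608, 634 and 622 CPM at 12 h and 543, 560.5 and 542 CPM at 24 h (-0.18 ± 0.03, adjusted p = 0.00011).

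Genes of amino acid supply moved the other way. ATF4 is a transcription factor made when amino acids or translation run short, and it turns on transporters and enzymes that provide amino acids. Of 30 genes in this list, 13 rose and none fell between 12 and 24 h, with a median of 0.11. By 12 h 3 had risen and 7 had fallen, and at 24 h 12 were above 0 h and 3 below. Of the 13, 9 rose late, 1 kept rising, 2 recovered from a fall and 1 passed from below to above 0 h by its estimate. Without 24 h replicate 2 the 13 became 7. ASNS, asparagine synthetase, measured 28.6, 31.7 and 29.9 CPM at 12 h and 36.0, 36.8 and 38.2 CPM at 24 h. Its 0 h and 12 h values overlapped and its 24 h values lay above both (0.30 ± 0.049, adjusted p = 8.5e-05). PSAT1 and PSPH, the later enzymes of serine synthesis, rose by 0.19 ± 0.032 (adjusted p = 0.00014) and 0.19 ± 0.037 (adjusted p = 0.00092). SLC7A1, a carrier of arginine and lysine, measured 399, 394 and 425 CPM at 12 h and 456, 454 and 460 CPM at 24 h (0.17 ± 0.032, adjusted p = 0.00071). The largest change of the list was 0.35 ± 0.078 (adjusted p = 0.044) for SLC7A11, the cystine and glutamate exchanger, whose 24 h values of 539, 596 and 650 CPM followed 468, 432 and 499 CPM at 12 h and 538 to 573 CPM at 0 h. Its call, chosen for mention after its values were seen, was lost in 7 of 19 alternatives, among them those without any 1 of the 0 h libraries, 12 h replicate 1 or 24 h replicate 2. ATF4 itself did not pass (0.02). Of 20 aminoacyl-tRNA synthetases, enzymes that load amino acids onto tRNA, 3 rose and none fell (MARS1, IARS1 and CARS1, 0.11 to 0.15). The call of CARS1 was lost without 12 h replicate 3, that of MARS1 without 12 h replicate 3 or 24 h replicate 2, and that of IARS1 without any 1 of the 6 libraries.

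The ATF4 site TGATGNAA, read on both strands, was in 4 of the 25 promoters found for this list, 16%, and in 1.71% of all 11723. Of the 10 called genes with a promoter, 3 held it. ASNS (chr7:97872359-97872658, minus strand) and SLC7A1 (chr13:29595639-29595938, minus strand) are printed as called genes of this list that are described above, with the match in capitals, 5′ to 3′ along the gene in GRCh38.p14.
ASNS: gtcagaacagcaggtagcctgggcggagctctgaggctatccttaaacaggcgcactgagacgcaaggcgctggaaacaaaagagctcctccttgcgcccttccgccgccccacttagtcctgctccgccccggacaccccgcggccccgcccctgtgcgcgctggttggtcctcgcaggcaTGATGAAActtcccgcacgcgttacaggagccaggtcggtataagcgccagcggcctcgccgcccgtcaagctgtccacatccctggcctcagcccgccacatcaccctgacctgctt
SLC7A1: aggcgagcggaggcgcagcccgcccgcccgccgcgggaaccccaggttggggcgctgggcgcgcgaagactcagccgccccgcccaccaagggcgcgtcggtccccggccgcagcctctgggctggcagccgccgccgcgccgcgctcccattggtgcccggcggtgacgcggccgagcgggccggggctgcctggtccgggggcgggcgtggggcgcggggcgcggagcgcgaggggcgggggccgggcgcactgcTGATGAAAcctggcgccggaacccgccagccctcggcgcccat

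Metallothioneins, small proteins that bind zinc and copper and are induced by metal, were among the largest falls. The 5 that were tested are neighbors on chromosome 16 and resemble each other closely, so the sharing of reads among them is uncertain. MT2A (chr16:56608584-56609497) measured 137, 128 and 120 CPM at 12 h and 80.4, 58.3 and 65.4 CPM at 24 h. Its groups did not overlap, and the change was -0.92 ± 0.13 (adjusted p = 0.011). MT1G measured 65.2, 67.1 and 59.2 CPM and then 45.6, 39.7 and 37.2 CPM (-0.65 ± 0.12, adjusted p = 0.025). MT1F measured 8.22, 8.22 and 6.87 CPM and then 3.81, 4.21 and 3.46 CPM (-1.02 ± 0.13, adjusted p = 8.9e-06). All 3 fell late: between 0 and 12 h their adjusted p values were 0.14 to 0.27, although in each the 12 h mean was below that at 0 h. MT1X did not pass (-0.27 ± 0.12, adjusted p = 0.22), although its 24 h libraries also lay below those at 12 h. MT3, at 0.0426 to 0.294 CPM, was too low to compare. The call of MT2A was lost without 24 h replicate 3, and that of MT1G without 12 h replicate 1 or 2 or 24 h replicate 2 or 3, while MT1F passed under each of 19 alternatives.

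Zinc transporters did not move as a group. Of the 22 tested metallothioneins and zinc transporters 3 rose and 4 fell, with a median of 0.01. The other gene that fell was SLC30A4, which exports zinc into vesicles and had dropped from 241 to 264 CPM at 0 h to 133 to 135 CPM at 12 h, and measured 111, 107 and 122 CPM at 24 h (-0.24 ± 0.04, adjusted p = 0.00017). Those that rose were transporters of the importer family, SLC39A11, SLC39A8 and SLC39A4, by 0.14 to 0.19. The call of SLC39A11 was lost without 12 h replicate 1 or 24 h replicate 2, that of SLC39A8 without 12 h replicate 2 or 3 or 24 h replicate 1 or 2, and that of SLC39A4 in 7 alternatives, among them those leaving out 0 h replicate 3, either of the 12 h replicates 1 and 3, or 24 h replicate 1 or 2. SLC30A1, the zinc exporter of the plasma membrane and itself a known target of the metal-responsive factor, was 0.77 above 0 h at 12 h and changed by 0.09 to 24 h, which did not pass. The metal response element core TGCNCNC is a short pattern, and on both strands it was in 63.1% of all promoters. MT2A and MT1X were the tested metallothioneins with a promoter in the table, with 8 and 4 matches. That of MT2A (chr16:56608334-56608633, plus strand, GRCh38.p14) is printed as the most abundant member, with matches, which can lie on either strand and may overlap, in capitals.
MT2A: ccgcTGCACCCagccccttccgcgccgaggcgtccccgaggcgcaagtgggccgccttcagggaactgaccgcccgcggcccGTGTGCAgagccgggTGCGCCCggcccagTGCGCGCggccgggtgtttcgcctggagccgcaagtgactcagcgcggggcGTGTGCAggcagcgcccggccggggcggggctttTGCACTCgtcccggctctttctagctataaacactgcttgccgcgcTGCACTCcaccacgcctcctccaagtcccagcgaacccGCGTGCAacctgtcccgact

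**Figure D3:**
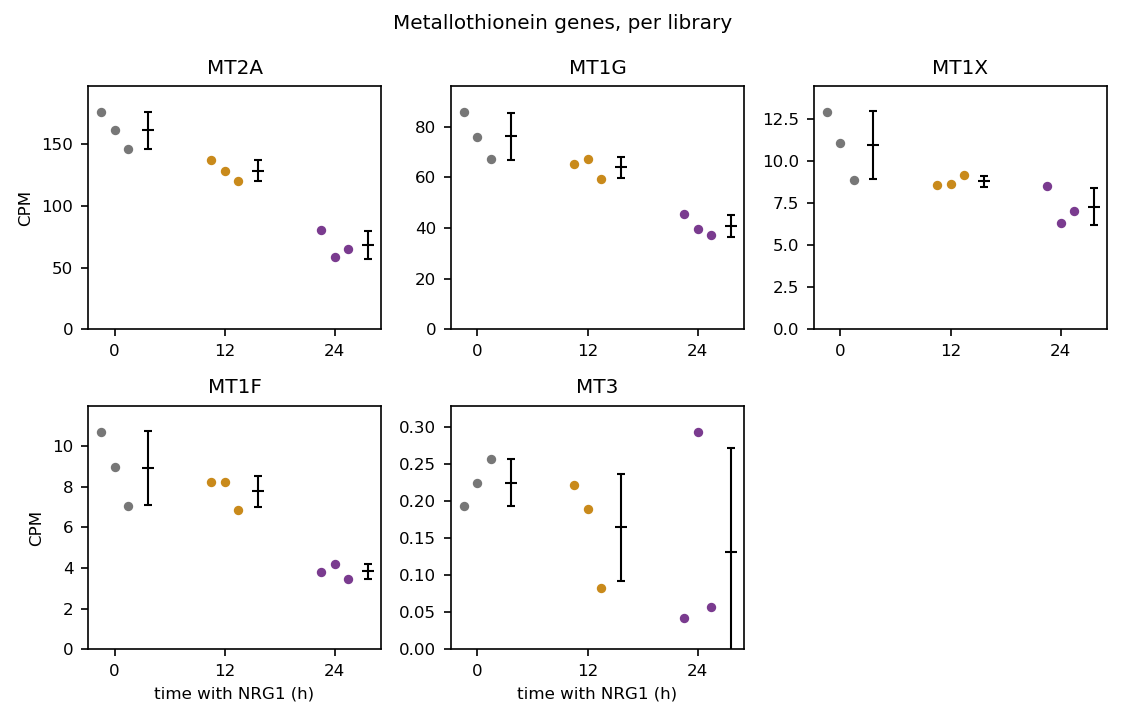
CPM of the 5 tested metallothionein genes in each library at 0, 12 and 24 h of NRG1, on linear axes from 0; points are libraries, and the bar beside them is the mean ± SD of 3 (cut at 0 for MT3). MT2A, MT1G, MT1F and MT1X are lower in all 3 libraries at 24 h than in any at 12 h, but MT1X, like MT3, did not pass the test.

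Many outputs of the ERK cascade that had risen early kept their level, and some went on rising. ETV4, an ETS factor of the PEA3 group, was at 0.0345 to 0.259 CPM at 0 h and went from 14.8, 14.9 and 14.1 CPM at 12 h to 24.7, 27.2 and 23.7 CPM at 24 h. No 24 h library overlapped with 12 h, and the change was 0.79 ± 0.079 (adjusted p = 2.8e-08). Its reads may be shared with DHX8, which overlaps it with over 3 times its counts and changed by -0.08. ETV5, of the same group, measured 11.7, 13.4 and 11.2 CPM and then 16.8, 16.005 and 15.1 CPM (0.40 ± 0.085, adjusted p = 0.002). FOS, a subunit of AP-1, measured 29.9, 27.8 and 28.2 CPM and then 36.7, 32.4 and 35.0 CPM (0.28 ± 0.058, adjusted p = 0.0019). EGR1, an immediate early factor, was level at 21.5 to 23.2 CPM at 12 h and 22.5 to 24.2 CPM at 24 h (0.05), against 0.598 to 0.829 CPM at 0 h. Of 18 ETS, AP-1 and EGR factors, 11 had risen and 4 had fallen by 12 h. Between 12 and 24 h 5 rose and 1 fell, with a median of 0.09. The others that rose were JUND (0.15) and JUN (0.15), both of which had fallen by 12 h and had estimates still below 0 h at 24 h. For JUND that difference from 0 h did not pass (-0.05, adjusted p = 0.35). ETV1, which had risen by 12 h, fell by 0.13. The call of JUN was lost without 12 h replicate 3 or 24 h replicate 3.

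Of 15 feedback inhibitors of ERK signaling, 11 had risen and 4 had fallen by 12 h, with a median of 0.48, and 2 rose and none fell after that, with a median of 0.09. DUSP6, a phosphatase of ERK, measured 0.343 to 0.605 CPM at 0 h, 8.46, 9.68 and 8.88 CPM at 12 h and 11.3, 12.9 and 12.0 CPM at 24 h (0.42 ± 0.091, adjusted p = 0.0026). DUSP5, a nuclear one, measured 9.50, 9.36 and 10.2 CPM and then 12.0, 11.4 and 11.9 CPM (0.28 ± 0.079, adjusted p = 0.024), and its call was lost without 12 h replicate 1 or 2 or 24 h replicate 1 or 3. Of the 12 ERBB receptors, ligands and sheddases tested, HBEGF, a ligand of EGFR and HER4, rose from 10.3, 11.1 and 11.2 CPM to 14.1, 12.2 and 14.1 CPM (0.31 ± 0.077, adjusted p = 0.0092), a call lost without 12 h replicate 1 or 24 h replicate 1 or 3. The receptors were near their 12 h level, with changes of -0.09 ± 0.033 for ERBB3, -0.02 ± 0.034 for ERBB2 and 0.03 ± 0.059 for EGFR, none of which passed.

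The androgen program went down in part. Of 29 tested genes induced by androgen, 15 had fallen and 6 had risen by 12 h, with a median of -0.19, and 12 fell and 3 rose between 12 and 24 h, with a median of -0.12. Without 12 h replicate 2 or 24 h replicate 2 the 12 became 7. SLC45A3, the prostate antigen prostein, went from 187 to 195 CPM to 137 to 147 CPM and then to 114, 114 and 106 CPM (-0.35 ± 0.035, adjusted p = 8.2e-09), with no overlap between the libraries of any 2 times. TMPRSS2, a membrane serine protease, fell by 0.25 and then by 0.32 ± 0.044 (adjusted p = 3.6e-06) on the log2 scale.

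The secreted kallikreins turned back. KLK3, prostate-specific antigen, rose by 0.41 to 12 h and fell by 0.17 ± 0.033 to 24 h (adjusted p = 0.001), which left it 0.25 above 0 h. KLK2 measured 236, 239 and 252 CPM at 0 h, 267, 253 and 263 CPM at 12 h and 220, 197 and 204 CPM at 24 h (-0.34 ± 0.036, adjusted p = 6.3e-08). STEAP2, a metalloreductase, had fallen by 12 h and rose again from 671 to 687 CPM to 810 to 862 CPM (0.28 ± 0.033, adjusted p = 1.8e-07). Of 15 tested genes listed as repressed by androgen 3 rose and 3 fell, with a median of 0.00. UGT2B15, which conjugates androgens for removal, rose by 0.25 ± 0.036 (adjusted p = 9.5e-06), and its close paralog UGT2B11 by 0.29 ± 0.05 (adjusted p = 0.00015). TMEFF2, a transmembrane protein of prostate cells, fell by 0.42 ± 0.043 (adjusted p = 1.9e-08) on the log2 scale. The others called in this list were UGT2B10, a further close paralog, at 0.38, whose call was lost without 12 h replicate 1 or 2 or 24 h replicate 1, SLC44A4, a choline transporter, at -0.23, and PEG3. Among 8 prostate lineage factors HOXB13 (-0.15 ± 0.03, adjusted p = 0.0015) and SPDEF fell and POU2F1 rose. The calls of SPDEF and POU2F1 were both lost without 12 h replicate 1 or 2 or 24 h replicate 1 or 3. That of POU2F1 was lost also without a scaling factor.

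The largest rises with a fold of at least 1.5 were led by trypsinogens. PRSS2 (chr7:142760398-142774564) measured 10.6, 10.7 and 10.96 CPM at 12 h and 27.3, 28.7 and 26.2 CPM at 24 h, which did not overlap, a change of 1.35 ± 0.067 (adjusted p = 2.9e-16). Its neighbor PRSS1 measured 43.6, 43.1 and 41.4 CPM and then 75.5, 80.6 and 69.5 CPM (0.82 ± 0.056, adjusted p = 1.8e-09), and PRSS3 on chromosome 9 rose by 0.73 ± 0.16 (adjusted p = 0.003). The 3 genes are close paralogs, and how their shared reads were counted was not stated. TLL1, a metalloprotease that processes procollagens, measured 8.0001, 7.16 and 6.98 CPM and then 16.2, 15.5 and 14.7 CPM (1.06 ± 0.086, adjusted p = 5.9e-11). FGFR2, a receptor for fibroblast growth factors, was level between 0 and 12 h and went from 4.65, 3.59 and 3.49 CPM to 6.05, 6.54 and 6.72 CPM (0.72 ± 0.12, adjusted p = 6.4e-05). PDE2A, a phosphodiesterase of cyclic nucleotides, rose late by 0.74 ± 0.15 (adjusted p = 0.0013), and CNTN5, a neuronal adhesion molecule, kept rising, by 0.69 ± 0.096 (adjusted p = 4.7e-06).

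MAN1A1, which trims mannose from N-glycans in the Golgi, measured 33.5 to 33.7 CPM at 0 h, 40.7, 37.9 and 35.7 CPM at 12 h and 55.9, 59.5 and 61.7 CPM at 24 h (0.63 ± 0.047, adjusted p = 6.8e-12). The remaining rises that met the rule were low or overlap other genes. SPATC1 (0.93), which PARP10 overlaps with over 15 times its counts, and STAG3L3 (0.90), a transcribed copy of part of STAG3, were at 1.26 to 3.46 CPM in the 6 libraries, and AC137932.5 (0.76) lies within ANKRD11. GLI1, the Hedgehog target and effector, measured 0.963, 0.624 and 0.784 CPM and then 1.32, 1.45 and 1.57 CPM (0.87 ± 0.24, adjusted p = 0.02). It overlaps ARHGAP9, which changed by 0.64, and its call was lost without 12 h replicate 2 or 3 or 24 h replicate 2 or 3. It was the 1 gene called among 11 of the Hedgehog pathway, whose median was -0.03. Among the smallest adjusted p values, and chosen after their values were seen, were ATP2B1, the calcium pump of the plasma membrane, and TNFSF15, a cytokine of the TNF family. ATP2B1 measured 196 to 202 CPM at 0 h, 254, 248 and 261 CPM at 12 h and 353, 364 and 369 CPM at 24 h (0.51 ± 0.032, adjusted p = 8.6e-14), and TNFSF15 rose by 0.37 and then by 0.58 ± 0.04 (adjusted p = 8.1e-13).

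The largest falls other than metallothioneins included genes that had dropped from the start. PEG3, an imprinted zinc finger gene (chr19:56810077-56840728), measured 991, 933 and 972 CPM at 0 h, 365, 352 and 395 CPM at 12 h and 180, 185 and 204 CPM at 24 h. No libraries of different times overlapped, and the later step was -0.97 ± 0.045 (adjusted p = 2.9e-11). MIMT1, a noncoding gene beside it and chosen after its values were seen, went from 1.25 to 1.67 CPM to 0.639 to 0.864 CPM (-0.97 ± 0.21, adjusted p = 0.0025). Of 17 other imprinted genes none was called, with a median of 0.02. DSEL, an epimerase of dermatan sulfate, measured 161 to 177 CPM at 0 h, 65.6, 60.96 and 64.0 CPM at 12 h and 38.5, 37.1 and 41.0 CPM at 24 h (-0.71 ± 0.044, adjusted p = 1.5e-13). ACTRT3, an actin-related protein, fell by 0.69 ± 0.1 (adjusted p = 1.1e-05) on the log2 scale after a fall of 0.89.

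CPLX1, complexin 1, which regulates vesicle release, was a rise that faded: 24.2 to 24.4 CPM at 0 h, 43.3, 40.0 and 40.9 CPM at 12 h and 28.9, 27.7 and 26.1 CPM at 24 h (-0.59 ± 0.049, adjusted p = 1.1e-10). CDKN1C, the CDK inhibitor p57, was at 3.06 to 4.20 CPM and then 2.36 to 2.49 CPM (-0.61 ± 0.14, adjusted p = 0.0062), and its call was lost without 12 h replicate 1. TBX10, a T-box factor, fell late by 0.68 ± 0.16 (adjusted p = 0.0057), a call lost without 12 h replicate 2. ALB, albumin, fell by 0.62 ± 0.16 (adjusted p = 0.014) on the log2 scale, a call lost without 12 h replicate 1 or 3 or 24 h replicate 3.

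In 20 genes the difference from 0 h passed its own test at 12 h and at 24 h with opposite signs, 9 of them up first and 11 down first. NMU, a neuropeptide, went from 13.5 to 14.5 CPM to 15.7 to 17.2 CPM and then to 10.2 to 12.3 CPM (-0.56 ± 0.072, adjusted p = 1.2e-06). FTH1, the heavy chain of ferritin, which stores iron, measured 831 to 866 CPM at 0 h, 816, 791 and 781 CPM at 12 h and 928, 892 and 907 CPM at 24 h (0.19 ± 0.031, adjusted p = 5.4e-05). BCHE, butyrylcholinesterase, chosen after its values were seen, measured 106 to 113 CPM, then 99.4 to 103 CPM and then 136 to 142 CPM (0.47 ± 0.035, adjusted p = 6.8e-12).

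**Figure D4:**
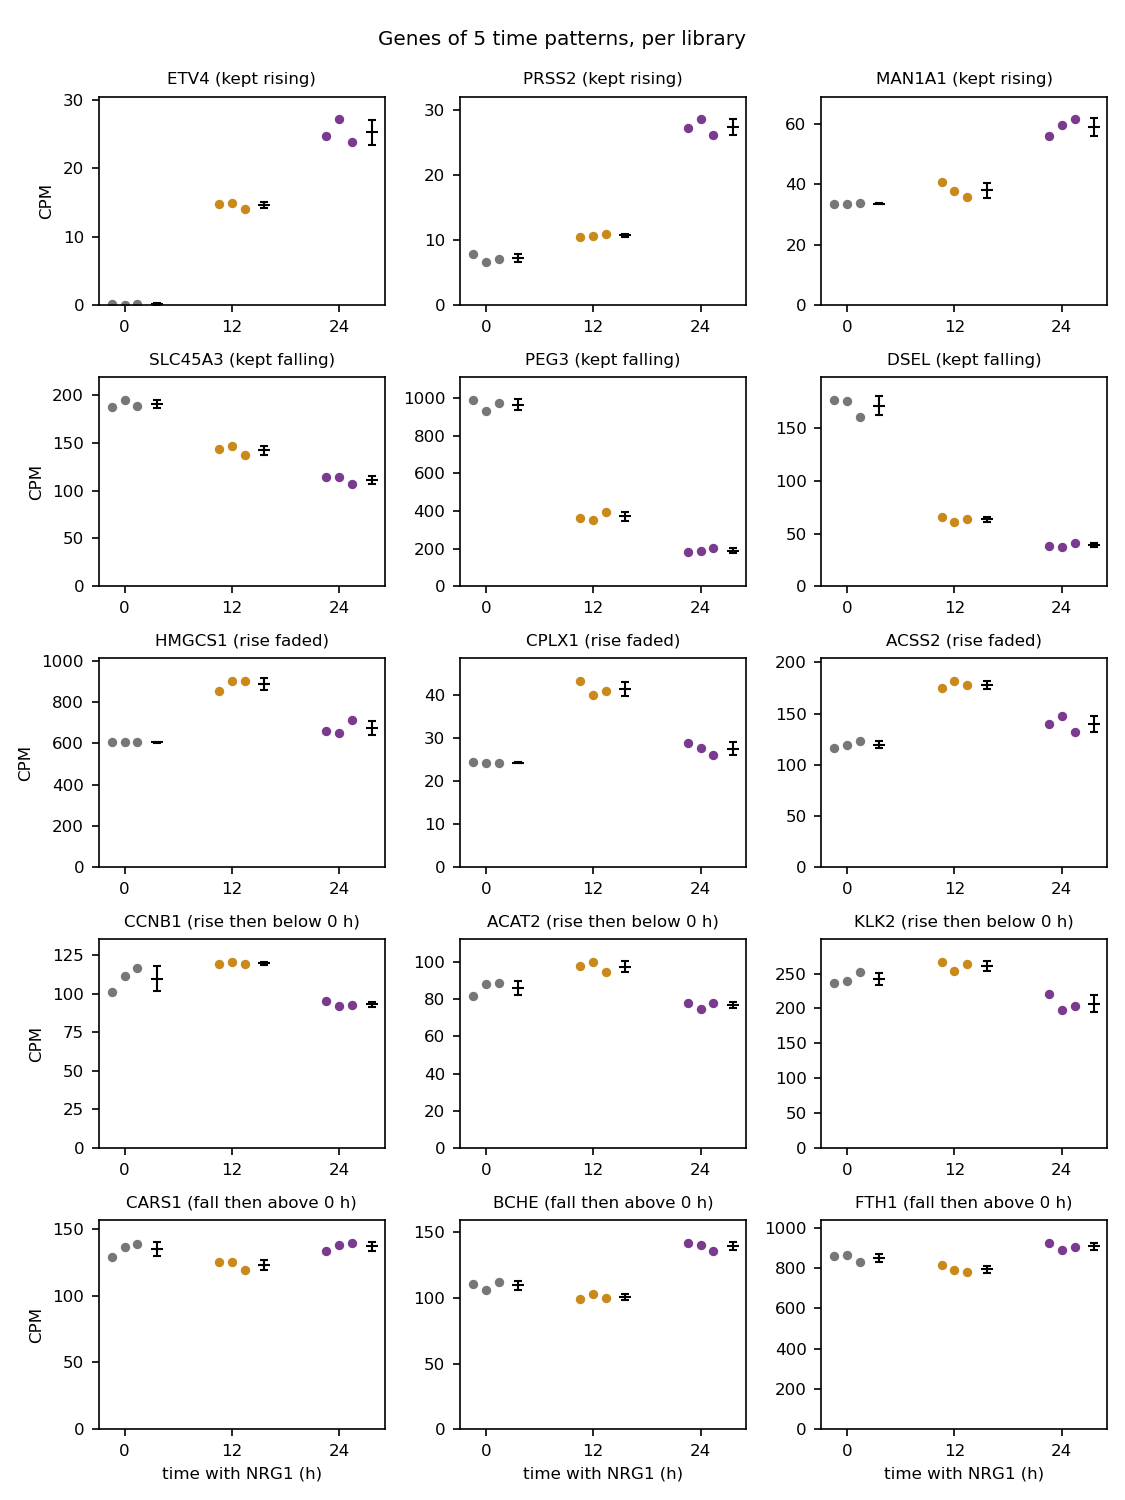
CPM of 15 genes of 5 time patterns in each library at 0, 12 and 24 h of NRG1, 3 genes a row, on linear axes from 0; points are libraries, and the bar beside them is the mean ± SD of 3. ETV4, PRSS2 and MAN1A1 step up at both times and SLC45A3, PEG3 and DSEL down, HMGCS1, CPLX1 and ACSS2 return part of the way, and the genes of the lower rows end on the other side of their 0 h mean.

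Among heat-shock chaperones listed as cytosolic the falls were smaller. Of 20 tested 5 fell and none rose, with a median of -0.03, among them HSPA8, the constitutive HSP70, from 2633 to 2817 CPM to 2421 to 2521 CPM (-0.15 ± 0.031, adjusted p = 0.0017). The others were HSPD1, HSPB1, DNAJA1 and AHSA1, of which HSPD1 encodes a mitochondrial chaperonin and not a cytosolic one. The 5 became 2 or 3 without 12 h replicate 1 or 2 or any of the 24 h libraries. Endoplasmic reticulum chaperones had dropped by 12 h, 21 of 25 lower and 1 higher with a median of -0.26, and between 12 and 24 h 4 fell and the median was -0.01. HSP90B1, PDIA3 and PDIA6 kept falling, and ERO1A had risen by 0.24 to 12 h. Without 12 h replicate 2 the calls of PDIA3, PDIA6 and ERO1A were all lost. That of PDIA3 was lost also without 24 h replicate 1, and that of ERO1A without 12 h replicate 3, 24 h replicate 2 or 3, or a scaling factor. HSP90B1, the HSP90 of that compartment, was the strongest, from 2730.4 to 2844 CPM to 2298 to 2382 CPM (-0.24 ± 0.031, adjusted p = 1.2e-06). Of 56 nuclear-encoded subunits of the respiratory chain 6 fell and none rose, with a median of -0.06, and the 6 became 1 or 2 when 12 h replicate 2 or 3 was left out and 3 without 24 h replicate 3. None of the 13 mitochondrially encoded genes was called, with a median of -0.12 and changes of -0.24 to -0.01. Of 78 cytoplasmic ribosomal proteins 5 rose and 1 fell, with a median of 0.01, and the 5 became 1 when 12 h replicate 2 or 3 or 24 h replicate 1 was left out and 3 without each of the other 3 libraries.

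In the following lists few members were called, some at shares near those of all tested genes, and the values are given for the single genes. SAT1, which acetylates polyamines for export, fell from 85.3, 86.6 and 86.1 CPM to 64.6, 60.8 and 61.5 CPM (-0.47 ± 0.037, adjusted p = 2.9e-11), and it was 1 of 3 that fell among 12 genes of polyamine metabolism. The others were ARG2, a mitochondrial arginase that VTI1B overlaps with over 3 times its counts (-0.35 ± 0.051, adjusted p = 1.5e-05), and SMS, spermine synthase (-0.11), whose call was lost without 12 h replicate 1 or 2 or 24 h replicate 1 or 2 and without a scaling factor. Of 33 interferon-stimulated genes 2 fell, led by B2M, the light chain of MHC class I, at 99.1 to 99.7 CPM and then 83.9 to 84.1 CPM (-0.25 ± 0.034, adjusted p = 5.4e-06). HERC6, the other one, lost its call without any 1 of the 12 h libraries, without 24 h replicate 2 or 3, and with counts thinned to the smallest library. In the clock list of 20, CRY1 rose by 0.29 ± 0.049 (adjusted p = 0.00011), and BHLHE40 and NR1D2 fell by 0.24 ± 0.039 (adjusted p = 9e-05) and 0.19 ± 0.035 (adjusted p = 0.00027) on the log2 scale. Of 15 G1 cyclins and CDK inhibitors, CDKN2A, the p16 and ARF gene, rose by 0.25 ± 0.053 (adjusted p = 0.0021), and CDKN1A, the inhibitor p21, fell by 0.17 ± 0.032 (adjusted p = 0.00077), as did CDKN1C. Among 17 Eph receptors and ephrins EPHA3 fell (-0.18 ± 0.033, adjusted p = 0.00029) and EPHB2 and EPHA1 rose, the latter (0.39 ± 0.054, adjusted p = 4.7e-06) overlapping ZYX, which had over 3 times its counts and changed by 0.43. The call of EPHB2 was lost without 12 h replicate 2 or 3 or 24 h replicate 3.

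Glycolysis and hypoxia genes, of which 22 of 35 had risen by 12 h, had 2 rises and 3 falls and a median of -0.06. NDRG1, a hypoxia-responsive gene, fell from 533 to 554 CPM to 446 to 512 CPM (-0.17 ± 0.037, adjusted p = 0.0034). LDHA lost its call without 12 h replicate 2 or 3 or 24 h replicate 3, and VEGFA without 12 h replicate 1 or 3 or 24 h replicate 1. BNIP3 lost its call without 12 h replicate 1 or 3, 24 h replicate 2 or 3, or a scaling factor. CA12 lost its call without any 1 of the 12 h libraries, without 24 h replicate 1 or 2, and with counts thinned to the smallest library. The hypoxia response element core ACGTG, read on both strands, was in 13 of their 32 promoters, 40.6%, against 26.4% of all promoters. In the BCL2 family of 12, PMAIP1, the BH3-only protein NOXA, rose late by 0.23 ± 0.052 (adjusted p = 0.0045). HRK rose as well, and BMF and BCL2L1 fell, and each of these calls was lost without 12 h replicate 3 or 24 h replicate 3. That of BMF was lost also when the 0 h replicate 3 or replicate 2 of either later time was left out. That of BCL2L1 was lost also without 12 h replicate 1 or 2, 24 h replicate 1, or a scaling factor. Among 21 FOXO-regulated genes CITED2, a transcriptional coregulator, fell from 74.6 to 74.9 CPM to 62.8 to 69.0 CPM (-0.18 ± 0.039, adjusted p = 0.0028), and SESN1 fell with a call lost without 12 h replicate 1 or 24 h replicate 2. Among 23 p53 targets PLK2, a kinase that had risen by 1.00 to 12 h, rose further by 0.20 ± 0.043 (adjusted p = 0.0034), and BTG2 and MDM2 fell. The call of BTG2 was lost without 24 h replicate 3, and that of MDM2 when 0 h replicate 3 was left out, or 12 h replicate 1 or 3, or 24 h replicate 1 or 2. Among 34 genes of lysosome and autophagy 3 fell and none rose, among them GUSB and NPC2, with calls lost without 24 h replicate 3, that of GUSB also without 12 h replicate 3. Of 36 genes of secretory transport CREB3L4, an androgen-responsive transcription factor of the secretory pathway, fell by 0.24 ± 0.042 (adjusted p = 0.00015), and SEC61G fell and COPB1 rose with calls lost without 12 h replicate 2 or 3 or 24 h replicate 3, that of SEC61G also without 24 h replicate 1 and that of COPB1 also without 12 h replicate 1 or 24 h replicate 2. In the 21 NFE2L2 targets the rises were FTH1 and SLC48A1, and in the 5 neuroendocrine markers the rise was SYT4. SLC48A1 lost its call without 12 h replicate 3 or 24 h replicate 1, and SYT4 without 12 h replicate 1 or 2 or 24 h replicate 1. No member was called among 35 genes of the proteasome, 17 YAP and TEAD targets, 19 genes of TGF-beta and BMP response, 12 integrins, 10 genes of the MYC network, the mitochondrially encoded genes or the imprinted genes, with medians from -0.12 to 0.07.

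**Figure D5:**
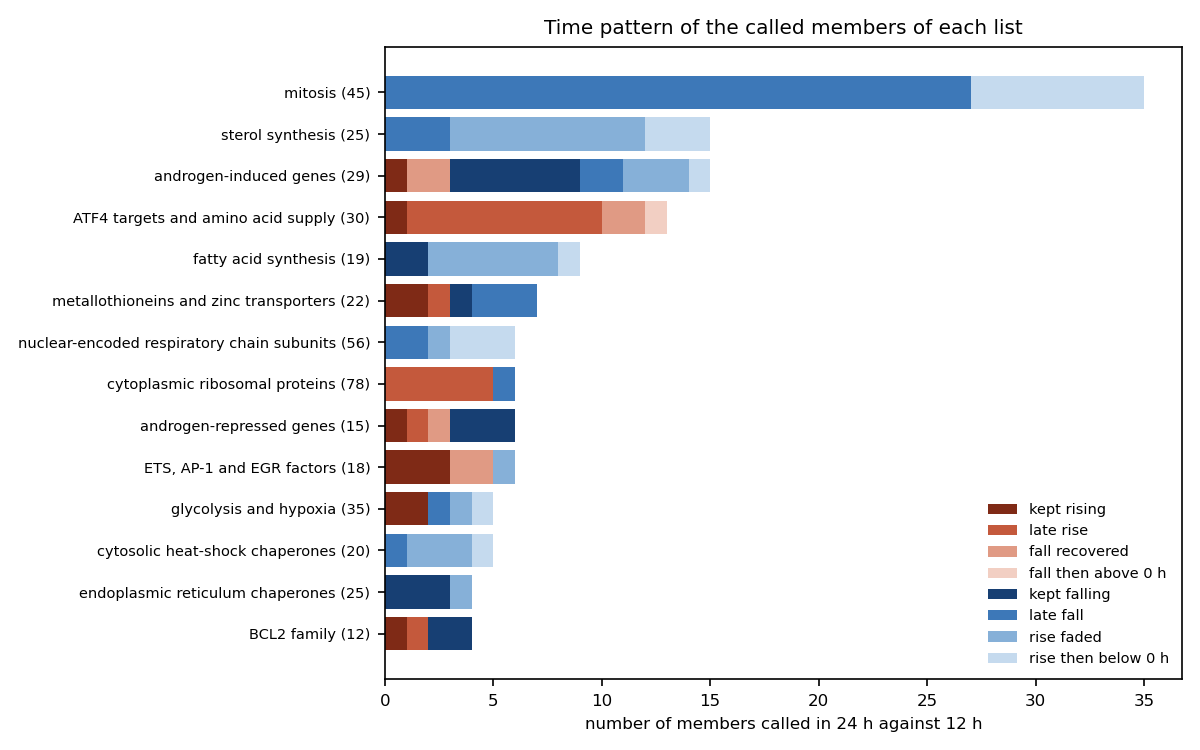
Number of members called in 24 h against 12 h in each list with at least 4 such members, stacked by their pattern over 0, 12 and 24 h; red shades were higher and blue shades lower at 24 h, and the number tested is in parentheses. Mitosis holds 27 late falls and 8 rises that ended below 0 h, sterol synthesis 9 rises that faded, and the ATF4 list 9 late rises. The side of 0 h at 24 h was set by the sign of the estimate, without a test.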

How the data were processed

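RNA of LNCaP cells was sequenced in 3 libraries each at 0, 12 and 24 h of NRG1. The authors trimmed reads with Cutadapt, aligned them with STAR to GRCh38.p13 with GENCODE gene models and counted them per gene with featureCounts, and FastQC 0.11.9 was named in the submitters' processing notes. The deposited values are raw counts per gene, not normalized. Strand setting and the treatment of reads with several matches are not given in the sources used here. The study left out 1 time-0 replicate of LNCaP, which is not analysed here, and 14 empty columns were not used.

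Genes with at least 10 counts in 3 of the 6 libraries at 12 and 24 h were fitted over all 9 libraries with edgeR 4.0.16 in R 4.3.3 (TMM factors, robust quasi-likelihood test, no covariate), and p-values were adjusted by Benjamini-Hochberg over all tested genes. Genes were called at an adjusted p of at most 0.05, and in a stricter count at a fold of 1.5 as well. CPM used TMM-scaled library sizes, except that sums over markers used total counts. An error after ± is an SE of a log2 fold change unless given as SD. Depth was 47016302 counts or more per library, and intervals cover no variation beyond these wells. Nothing in the labels beyond the word for biological replicate tells whether wells came from separate cultures.

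Named genes were the 12 largest rises and falls with groups that did not overlap and a mean log2 CPM no lower than 1, up to 4 called members of each list by adjusted p, the 5 largest changes of each pattern, and all metallothioneins. Other named genes, among them KLK3, TMPRSS2, EGR1, JUN, ETV1, ERBB2, ERBB3, EGFR, CCNB2, SLC7A11, SLC30A1, SLC39A4, SLC39A8, UGT2B10, SLC44A4, CA12, DNAJA1, MIMT1, ATP2B1, TNFSF15 and BCHE, were chosen after their values were seen. Some genes that met the rule are not reported here. The gene lists, like the comparison itself, were chosen with earlier results of these data known. Promoters came from RefSeq on GRCh38.p14. The test was tried on simulated counts, and the alternatives were DESeq2 1.42.0, other filters and scalings, thinning to the smallest library, a replicate block and leaving out each library.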

Additional observations from a re-analysis of the deposited data

Results flagged for a closer look

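In 20 genes the difference from 0 h had opposite signs at 12 h and 24 h, each past its own test, and the change between the times passed as well. Those of them named here were singled out because the difference between the 2 times was itself tested, as log2 fold changes from 12 to 24 h with edgeR's adjusted p. Cyclin B1 (CCNB1) changed by -0.36, ACAT2 by -0.34, KLK2 by -0.34 and the neuropeptide NMU by -0.56, all after a rise. The ferritin heavy chain FTH1 changed by 0.19, after a fall. The 12 h libraries enter both differences of each gene.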

How the results depend on the processing

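The count of 90 genes with a fold of at least 1.5 (50 higher, 40 lower) became 5 (2 and 3) when the test was made against that fold itself with glmTreat and 36 (16 and 20) with a fold of at least 2, and DESeq2 called 24 lower. With each library left out it was 55 to 102 (31 to 59 higher, 24 to 45 lower), and that by adjusted p alone was 707 to 1474 (364 to 759 higher, 343 to 715 lower). Under the same omissions the calls were 1 to 5 for ribosomal proteins, 1 to 8 for the respiratory chain, 7 to 16 for ATF4 targets, 2 to 6 for heat-shock chaperones and 7 to 14 for androgen-induced genes. The pattern counts were 67 to 119 for kept falling, 42 to 115 for rise faded, 34 to 65 for rise then below 0 h, 35 to 115 for fall recovered, 39 to 86 for fall then above 0 h, 201 to 453 for late rise and 192 to 436 for late fall. The cause was not tested, although each omission leaves fewer samples. With a replicate block the count with the fold was 96 (54 and 42) and that by adjusted p 1294 (656 and 638). Same-numbered libraries shared a number only, with correlations of their deviations of -0.026 to 0.036. Over the named genes 2433 values under alternatives kept direction and side of the threshold, 180 lost a call, 3 gained one and 3 turned sign: MT3 was 0.091 without 24 h replicate 1 and 0.064 without 24 h replicate 3, within -1.68 to 0.091 over the omissions, and PSMD2 was 0.020 without 24 h replicate 3, within -0.038 to 0.020. Leaving out mitochondrially encoded genes gives no value for their own list. Depth limited genes such as MT3, at 0.0426 to 0.294 CPM.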
